A study of Mus musculus with 12 samples.

Results

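The cytosolic ribosomal protein genes encode the proteins that, together with ribosomal RNA, build the small (40S) and large (60S) subunits of the ribosome outside mitochondria. They were picked out by a pattern in the gene symbol: symbols of the Rps and Rpl series with a number and an optional a, x, l or l1, the stalk genes Rplp0 to Rplp2, and Rpsa, leaving out symbols marked as pseudogenes. This gave 79 of the 17175 genes in the deposited table: 30 of the small subunit, 43 of the large subunit, 3 of the stalk, and 3 paralogs (Rps27l, Rpl22l1 and Rpl7l1). All 79 carried the same symbol and identifier in the mouse GENCODE M21 annotation.

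The libraries came from distal and proximal small intestine of mice labelled Bmpr1a cKO, a conditional knockout of a receptor gene for bone morphogenetic proteins (BMPs), and of wild-type (WT) mice. The series asks how BMP signals to the epithelium relate to villus length along the intestine. The 4 groups, cKO distal, WT distal, cKO proximal and WT proximal, held 3 libraries each, and cKO and WT mice share no other stated allele or treatment. The labels name neither the Cre driver nor the age or strain. Whether each library of a group is a different animal is not stated either, and p-values therefore cover the spread between libraries, which may be technical. Values are scaled counts (read counts divided by a size factor of the library), and depth was 15225731 to 17722756 recovered reads in cKO and 11242024 to 16381314 in WT libraries. Reads of mitochondrially encoded genes made up 9.75% to 27.7% of cKO and 17.4% to 37.7% of WT libraries. The Y-linked genes Ddx3y, Eif2s3y, Kdm5d and Uty had 0 reads in both cKO libraries numbered 1 and reads in every other library. Bmpr1a itself stood at 486 to 668 in cKO distal and 438 to 631 in WT distal libraries, and at 833 to 1087 in cKO proximal and 772 to 1029 in WT proximal libraries (limma adjusted p = 0.852 and 0.983). Counts over the whole gene take in exons that a deletion leaves, so they are no check of the genotype.

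Ribosomal proteins are made in near equal numbers, since each ribosome holds a single copy of almost all of them, and their mRNAs are among the most abundant of dividing and secretory cells. In vertebrates most of these mRNAs begin with a terminal oligopyrimidine (TOP) tract, an unbroken run of C and U that starts with C at the first base and places their translation under the control of mTOR and LARP1. In the intestine, ribosome production is known to be high in the dividing cells of the crypt and to decline as cells climb the villus.

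The TOP tract is what most members share in sequence, so the 30 bases around the annotated start are shown for the 3 members with the highest called WT segment change for which the promoter table has an entry (Rps19, Rps12 and Rpsa), for a stalk pair (Rplp0 and Rplp2) and for a gene and its paralog that behaved differently (Rps27 and Rps27l). Each is read 5′ to 3′ on the gene's strand, with 15 bases before the start and 15 from it on, from the RefSeq promoter table on GRCm38.p6 (mm10). Capitals mark runs of at least 8 C or T that start with C. The capital stretches at the left end of the Rps27l window and at the right end of the Rps12 window are parts of such runs that continue outside the window.
Rps19 (chr7:24884661-24884690, plus strand): ccgcacggtgagtgagggctctgggtcgcg
Rps12 (chr10:23787195-23787224, minus strand): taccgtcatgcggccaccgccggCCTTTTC
Rpsa (chr9:120127751-120127780, plus strand): gtgggttatttaaggacgtcatttccggcc
Rplp0 (chr5:115559452-115559481, plus strand): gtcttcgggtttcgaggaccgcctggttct
Rplp2 (chr7:141447636-141447665, plus strand): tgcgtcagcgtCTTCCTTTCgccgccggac
Rps27 (chr3:90213634-90213663, minus strand): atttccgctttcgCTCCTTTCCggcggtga
Rps27l (chr9:66946071-66946100, plus strand): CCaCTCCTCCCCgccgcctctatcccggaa
The table held a promoter for 59 of the 79 members. A run of at least 8 C or T starting with C lay between 20 bases before and 30 after an annotated start, on the gene's strand, in 33 of the 59 (55.9%), against 18.3% of the 12782 measured genes in the table. On the opposite strand the shares were 10.2% and 20.4%. The 7-letter motif CCGGAAG, searched on both strands over the 300 bases of each promoter, was found in 40.7% of members and 17.3% of measured genes. A start that is annotated off its true place can move a tract out of the window, so no match says only that these letters are not there. In GENCODE, Rps19, Rpsa and Rplp2 begin at 24884371, 120127689 and 141447370, and Rps12 on the minus strand at 23787275. These positions are the outermost annotated ends of the genes and lie upstream of the windows shown. Each window was taken from the promoter entry nearest to the start of the gene's principal transcript. Whether the windows show the main start of these genes was not tested. Members with and without a run had near equal median log2 fold changes in the WT segment comparison described next (0.93 for 33 and 0.94 for 26).

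Per kilobase of transcript, averaged over the 12 libraries, the highest levels were those of Rplp1 (18077 scaled counts per kb), of the stalk, Rpl41 (17977), which encodes the shortest ribosomal protein, Rps27 (14970), Rps12 (13993) and Rps14 (12148). The lowest were Rpl35 (122 per kb), the paralog Rpl22l1 (133), Rpl23a (180), whose protein lies at the exit of the nascent chain tunnel, Rpl7l1 (606) and Rps20 (1258). The level of Rps20 rests on an annotated transcript of 3706 bases, the longest of these 10. Many members share sequence with processed pseudogenes, which bears on how aligned reads were counted. The median member shared 60% of its 50-base windows with another annotated gene, and 51 members shared 50% or more. Rpl35 shared 95.1%, the most with Wdr38, and Rpl23a 85.7%, so their low levels are uncertain. Among the 5 highest, Rps27 shared 98.6% and Rps12 90.1%, so their levels are uncertain as well. Rplp1 shared 60.0%, Rpl41 53.1% and Rps14 38.1%.

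**Figure D1:**
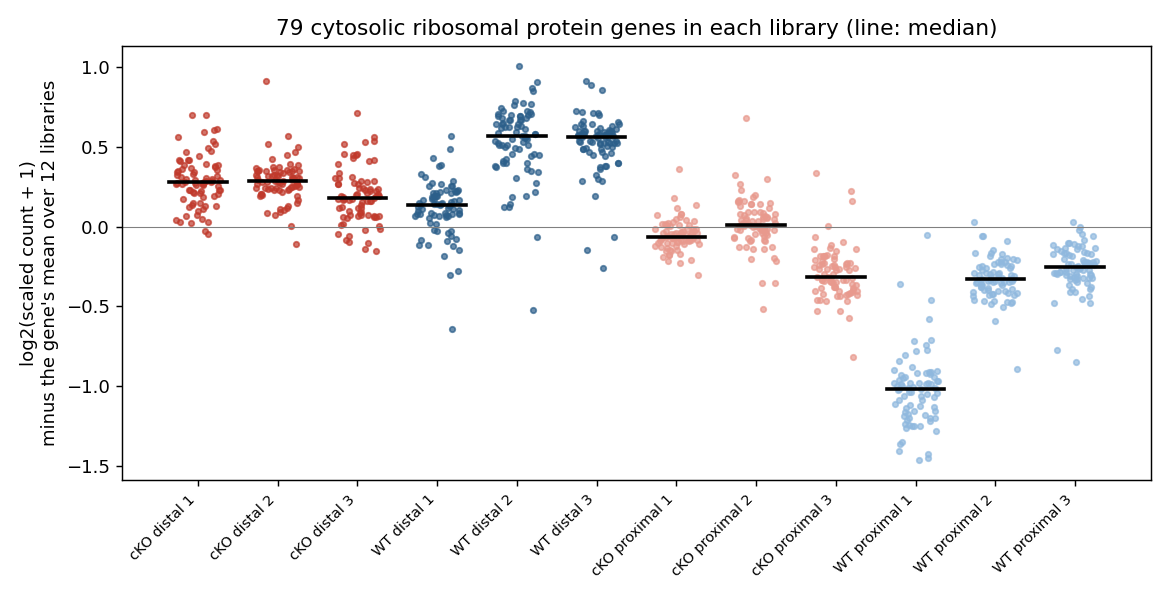
Each point is 1 of the 79 ribosomal protein genes in 1 library, as log2(scaled count + 1) minus the gene's own mean over the 12 libraries; the line is the median. All medians of the distal libraries lie above 0, and library 1 of WT proximal lies lowest with a median of -1.02.

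In WT mice the ribosomal protein genes were higher in the distal than in the proximal segment almost as a block. With limma on log2(scaled count + 1), adjusted over all genes, 71 of the 79 rose and 0 fell. The background was 24.1% of all genes called in this comparison and 11.9% called higher. The median log2 fold change of the 79 was 0.94, against 0.04 over all genes. By subunit, 28 of 30 small subunit, 40 of 43 large subunit and 3 of 3 stalk genes rose, with medians of 0.99, 0.93 and 0.91, while 0 of the 3 paralogs did. In 75 members every distal library was above every proximal one, where 19.2% of all genes behaved so. Fewer cells of a type and less RNA of these genes per cell cannot be told apart in RNA from whole tissue.

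The largest of these changes was that of Rps19, a small subunit gene that is mutated in human Diamond-Blackfan anaemia. Its scaled counts were 4798, 6279 and 6794 in WT distal libraries, against 1437, 2430 and 2983 in WT proximal ones (log2 fold change 1.43, SE 0.24, adjusted p = 0.00077). The lowest distal library thus stood well above the highest proximal one. Rpsa, whose small subunit protein is also known as the laminin receptor precursor, had 12126, 16479 and 14934 in WT distal libraries, against 4161, 7582 and 7644 in WT proximal ones (log2 fold change 1.21, adjusted p = 0.0039). Rpl32 of the large subunit rose by a log2 fold change of 1.24 (adjusted p = 0.0010), Rps12 by 1.21 and Rps20 by 1.20. Rpl23a had 132, 145 and 122 in WT distal libraries, against 34.7, 74.1 and 51.6 in WT proximal libraries, the largest fold change of the large subunit (1.36) at a low level. The stalk genes recruit elongation factors to the ribosome. Rplp0 had 14858, 20318 and 19047 in WT distal libraries, against 5370, 9599 and 9759 in WT proximal ones (log2 fold change 1.17), and Rplp1 and Rplp2 rose by 0.84 and 0.91.

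The 8 members that did not pass were the paralogs Rps27l, Rpl7l1 and Rpl22l1 (log2 fold changes -0.18, 0.12 and 0.43) and Rpl7a, Rpl10, Rps29, Rpl38 and Rps14 (0.49, 0.59, 0.61, 0.63 and 0.64).

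Library 1 of WT proximal stood apart from the rest. It was the lowest of all 12 libraries for 77 of the 79 members and the lowest of WT proximal for 78. Without it, 48 members rose in WT distal, 0 fell, and the median log2 fold change was 0.69, against 0.08 over all genes. In that run 17.4% of all genes were called, and 1437 of the 17175 were called higher. The calls of Rplp1, Rplp2, Rps27 and Rpl7 were among those lost, with adjusted p of 0.132, 0.05002, 0.106 and 0.118.

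As a share of all reads outside mitochondrially encoded genes, the 79 genes took 4.50%, 5.18% and 4.34% of WT distal libraries, against 1.21%, 2.28% and 2.31% of WT proximal libraries. In cKO mice the share was 2.61%, 3.28% and 3.51% in distal libraries, against 2.24%, 2.36% and 2.01% in proximal libraries. Neither pair of groups overlapped, and the exact two-sided permutation p was 0.1 for each, the smallest that 3 against 3 libraries can give (0.133 adjusted over 4 comparisons). The 79 genes held 163222 to 520328 reads per library, so counting error is small beside the spread between libraries.

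**Figure D2:**
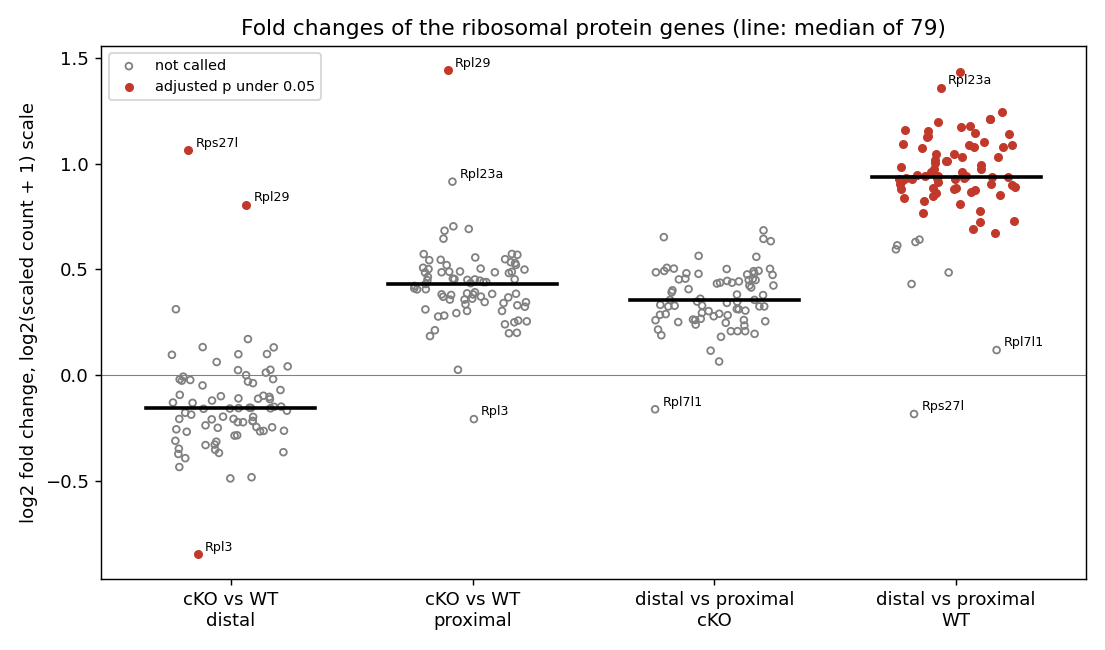
Log2 fold changes of the 79 ribosomal protein genes in the 4 comparisons, on the log2(scaled count + 1) scale; filled points passed at adjusted p under 0.05, open points did not, and the line is the median. The WT segment comparison is the one in which most members passed (71), with Rps27l and Rpl7l1 below the rest.

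In cKO mice the difference between segments had the same sign in 78 of the 79 members, but 0 passed the limma threshold, with a background of 10.5%. edgeR on the recovered reads also called 0, where 11.3% of all genes were called. At an unadjusted p under 0.05 there were 9 members in limma and 20 in edgeR. The share of all genes at that unadjusted threshold was not counted. The median log2 fold change was 0.36, against -0.02 over all genes. In 60 members every cKO distal library was above every cKO proximal one (13.9% of all genes), and in 1, Rpl7l1, every distal library was below. Rpl7l1 had 814, 826 and 841 in cKO distal libraries, against 889, 899 and 992 in cKO proximal libraries (log2 fold change -0.16, adjusted p = 0.590). Rps19 had 4518, 4636 and 4903 in cKO distal libraries, against 3171, 3186 and 2662 in cKO proximal libraries (log2 fold change 0.64, adjusted p = 0.109). Rps15 and Rps21, also of the small subunit, stood at 0.65 and 0.63 (adjusted p = 0.117 and 0.0922). Libraries of a genotype with the same number were taken to come from the same animal, which the labels do not state. With the animal as a block in limma these 3 genes passed in cKO (adjusted p = 0.0341 for Rps19, 0.0347 for Rps15 and 0.0299 for Rps21). Thus 3 members passed rather than 0. The background also rose with that block, to 15.1% of all genes called. Without library 1 of WT proximal, which enters the estimate of spread common to all groups, Rps19 and Rps21 passed (adjusted p = 0.0375 and 0.0475). That run called 11.2% of all genes in this comparison.

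In the proximal segment 1 member, Rpl29, passed between cKO and WT libraries, and it was higher in cKO. The background was 8.26%. The sign was positive for 78 of 79 members, with a median log2 fold change of 0.43 against 0.08 over all genes, and 32 members had every cKO library above every WT library (20.6% of all genes). The members nearest to the threshold after Rpl29 were Rpl23a (log2 fold change 0.91, adjusted p = 0.0639) and Rps2, of the mRNA entry side of the small subunit (0.70, adjusted p = 0.0812). Rps2 had 7649, 8754 and 6859 in cKO proximal libraries, against 3250, 5584 and 5857 in WT proximal libraries. This median rested in good part on library 1 of WT proximal: without it the median was 0.17, against 0.11 over all genes, and 71 members were positive. Outside mitochondrially encoded genes, the read share of the family was 2.20 ± 0.177% in cKO proximal and 1.93 ± 0.631% in WT proximal libraries (SD, n = 3 each; exact permutation p = 0.7). Without library 1 of WT proximal the difference in percentage points was -0.0942 in place of 0.270. Of all reads, mitochondrially encoded genes included, the family took 2.02%, 2.01% and 1.79% in cKO proximal libraries. In WT proximal libraries it took 0.996%, 1.69% and 1.74%, without overlap.

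In the distal segment 3 members passed between cKO and WT libraries, with Rps27l and Rpl29 higher and Rpl3 lower in cKO, where the background was 25%. The calls of Rpl29 and Rpl3 ended, and 1 member was left, with the mitochondrial share as covariate, without both cKO libraries numbered 1, and without library 2 of cKO distal. The sign was negative for 65 of 79 members and the median log2 fold change was -0.16, against 0.06 over all genes. It was -0.311 without library 1 of WT distal and -0.086 without library 3 of WT distal. Members whose cKO libraries all lay below the WT libraries numbered 5 (15.9% of all genes): Rpl3, Rpl15, Rpl35a, Rps15a and Rps23. Rpl15 had the smallest adjusted p of those that did not pass (log2 fold change -0.48, adjusted p = 0.0790). The size of this shift depended on the scaling. With libraries scaled to their total reads outside mitochondrially encoded genes, 30 members fell, 1 rose, and the median was -0.60, while the median over all genes moved to -0.35. Under that scaling 27.8% of all genes were called, and 3788 of the 17175 were called lower. The median of the members minus that of all genes was -0.22 with the deposited scaling and -0.24 with the other, but -0.13 with the mitochondrial share as covariate, -0.31 without library 1 of WT distal and -0.18 without library 3. Outside mitochondrially encoded genes, the read share of the family was 3.13 ± 0.467% in cKO distal and 4.67 ± 0.447% in WT distal libraries (SD, n = 3 each). These shares did not overlap (exact permutation p = 0.1, the smallest possible). Of all reads, mitochondrially encoded genes included, the family took 2.31%, 2.95% and 2.54% in cKO distal libraries. In WT distal libraries it took 2.81%, 3.65% and 3.37%, with overlap.

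The genotype difference was lower in the distal than in the proximal segment for 78 of the 79 members, with a median difference of -0.59 in log2 fold change against 0.00 over all genes. This difference of differences passed for 0 members in limma, where 0.576% of all genes passed, and for 0 in edgeR, where 0.344% did. At an unadjusted p under 0.05 there were 14 members in limma and 11 in edgeR. The share of all genes at that unadjusted threshold was not counted. Its smallest adjusted p was that of Rpl23a (-1.09, adjusted p = 0.242), followed by Rpl32 (-0.82, adjusted p = 0.244) and, with the opposite sign, Rps27l (0.60, adjusted p = 0.248). Without library 1 of WT proximal the median was -0.34. With the animal as a block in limma, 0 members passed, where 2.68% of all genes did. In that run 47 members had an unadjusted p under 0.05, a threshold at which all genes were again not counted.

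**Figure D3:**
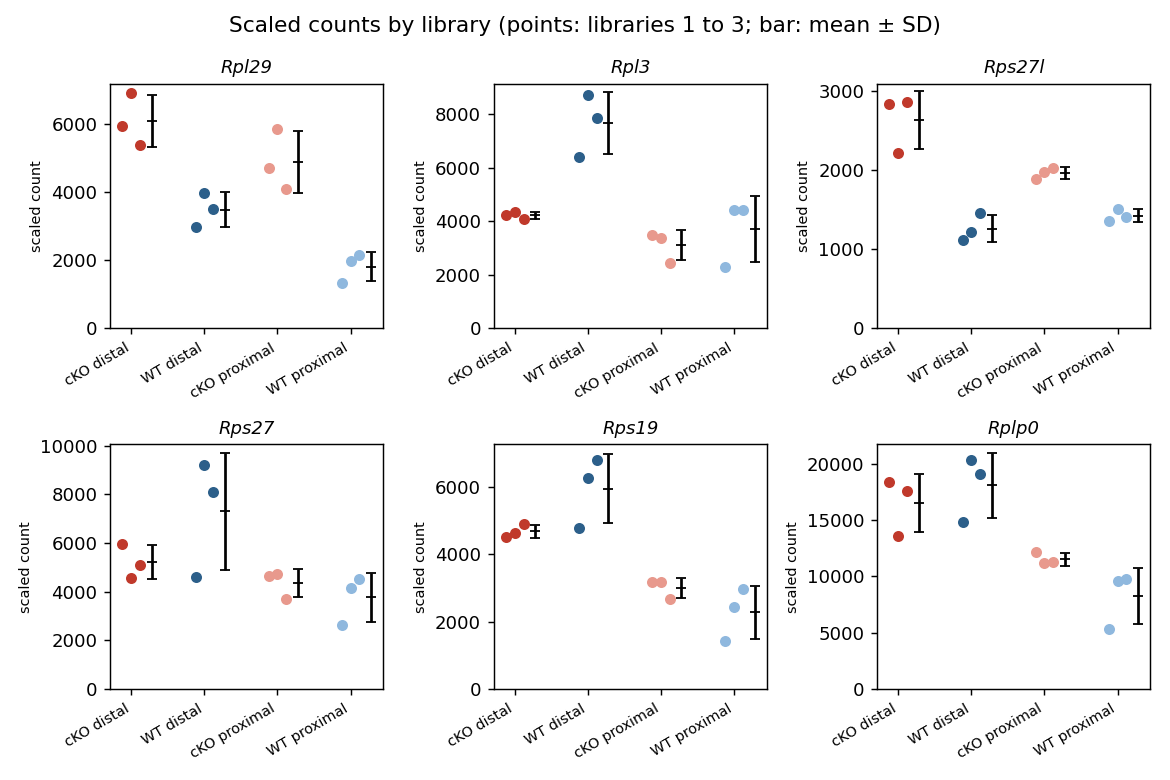
Scaled counts of 6 ribosomal protein genes in each library (points, libraries 1 to 3), with the mean ± SD of each group; axes start at 0. Rpl29 lies higher in cKO in both segments, Rpl3 lower in cKO distal libraries, and Rps27l higher in cKO distal libraries, where Rps27 does not.

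Rpl29, Rpl3 and Rps27l departed from the rest of the family. Rpl29 (chr9:106429454-106431568) encodes a small basic protein of the large subunit. Its scaled counts were 4705, 5864 and 4083 in cKO proximal libraries, against 1327, 1973 and 2140 in WT proximal ones (log2 fold change 1.44, SE 0.22, adjusted p = 0.0017). In the distal segment they were 5943, 6902 and 5394 in cKO libraries, against 2970, 3981 and 3499 in WT libraries (log2 fold change 0.81, SE 0.22, adjusted p = 0.0150). The distal call was lost without library 2 of cKO distal (adjusted p = 0.0591), without library 1 of WT distal (0.0589), without both cKO libraries numbered 1 (0.0651), with the mitochondrial covariate (0.105) and with total reads outside mitochondrially encoded genes (0.241). The genotypes did not overlap in either segment, while in both genotypes distal libraries averaged above proximal ones, as for most of the family.

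As a share of all ribosomal protein reads, Rpl29 took 1.37%, 1.60% and 1.31% of cKO distal libraries, against 0.773%, 0.760% and 0.679% of WT distal libraries. The same share was 1.38%, 1.64% and 1.41% in cKO proximal libraries, against 0.772%, 0.701% and 0.721% in WT proximal libraries. The 6 libraries of each genotype were close to each other whatever the segment, library 1 of WT proximal included. To test each member against the rest of the family, the fit was repeated with every library scaled to the median of the 79 genes, a choice made after these values were seen. On that scale Rpl29 was higher in cKO by a log2 fold change of 0.95 in the distal segment (SE 0.20, adjusted p = 0.0041; background 18.6%) and of 1.04 in the proximal segment (SE 0.20, adjusted p = 0.0058; background 8.36%). On this scale it passed in each repeat that left out 1 library, with adjusted p up to 0.0243 in the distal and 0.0395 in the proximal segment. Rpl29 shares 78.5% of its 50-base windows with other annotated genes, so reads of its processed copies may be among these, which was not tested.

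Rpl3 (chr15:80077791-80091868) encodes a large subunit protein near the peptidyl transferase centre. It had 4236, 4330 and 4076 in cKO distal libraries, against 6404, 8699 and 7842 in WT distal libraries (log2 fold change -0.85, SE 0.25, adjusted p = 0.0230). In the proximal segment it had 3498, 3380 and 2456 in cKO libraries, against 2305, 4409 and 4410 in WT libraries (log2 fold change -0.21, adjusted p = 0.641), with overlap. Its share of ribosomal protein reads was 0.975%, 1.003% and 0.991% in cKO distal libraries, against 1.67%, 1.66% and 1.52% in WT distal libraries. In the proximal segment that share was 1.03%, 0.947% and 0.848% in cKO libraries, against 1.34%, 1.57% and 1.49% in WT libraries, and the genotypes did not overlap. Against the family median Rpl3 was lower in cKO by a log2 fold change of -0.70 in the distal segment (adjusted p = 0.0237) and stood at -0.61 in the proximal segment (adjusted p = 0.0757, or 0.0199 without library 1 of WT proximal). Leaving out single libraries raised these adjusted p to at most 0.102 and 0.214. Rpl3 shares 85.6% of its windows with other genes, Rpl3-ps1 the most.

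**Figure D4:**
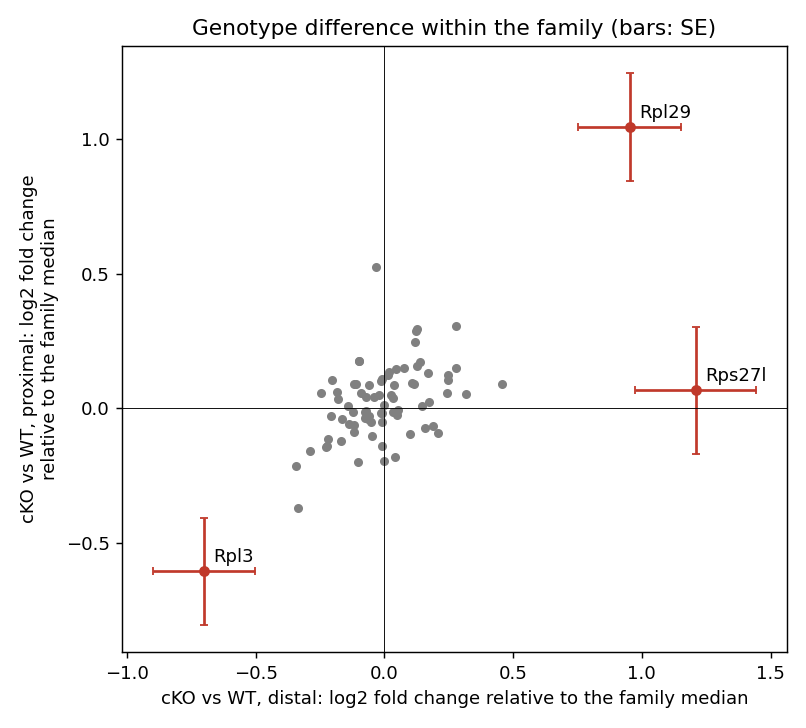
Each point is 1 of the 79 ribosomal protein genes: its cKO against WT log2 fold change relative to the family median in the distal segment (horizontal) and in the proximal segment (vertical), with SE bars for 3 genes. Rpl29 lies apart at 0.95 and 1.04, Rpl3 at -0.70 and -0.61, and Rps27l at 1.21 and 0.07.

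Rps27l (chr9:66946086-66949516) encodes a paralog of the small subunit protein of Rps27 and is known in human and mouse cells as a target of p53. It had 2833, 2218 and 2858 in cKO distal libraries, against 1114, 1214 and 1455 in WT distal libraries (log2 fold change 1.06, SE 0.16, adjusted p = 0.00033). In the proximal segment it had 1887, 1978 and 2033 in cKO libraries, against 1354, 1510 and 1412 in WT libraries (log2 fold change 0.46, adjusted p = 0.0850). Neither pair overlapped. Between WT segments its log2 fold change was -0.18, where the family median was 0.94. Against the family median it was higher in cKO distal libraries (1.21, SE 0.24, adjusted p = 0.0026), stood at 0.07 in the proximal segment (adjusted p = 0.905), and was lower in WT distal than in WT proximal libraries (-1.19, adjusted p = 0.00089). Rpl7l1 and Rpl7a were the other members lower than the family in WT distal libraries (-0.88 and -0.52, adjusted p = 0.0031 and 0.0473), and the background of that test was 52.7%. With 1 library left out, 2 members passed there, except that 4 passed without library 1 of WT proximal. These runs called 43.8% to 54.0% of all genes. The difference of the Rps27l genotype effect between segments was 1.14 on that scale (adjusted p = 0.139). Rps27l shares 22.4% of its windows with other genes, and Rps27 98.6%, mostly with Rps27rt.

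The parent genes of the paralogs moved with the family. Rps27 had 4609, 9196 and 8104 in WT distal libraries, against 2628, 4172 and 4532 in WT proximal ones (log2 fold change 0.93, adjusted p = 0.0232), and Rpl22 and Rpl7 rose by 1.05 and 0.78. Of the reads of Rps27l and Rps27 together, Rps27l held 32.2%, 32.7% and 35.8% in cKO distal libraries, against 19.5%, 11.7% and 15.2% in WT distal libraries. The share was 28.8%, 29.5% and 35.4% in cKO proximal libraries, against 34.0%, 26.6% and 23.7% in WT proximal libraries. WT distal was thus the group with the low share. Rpl7l1 held 7.87 ± 0.495% of its pair with Rpl7 in WT distal and 11.9 ± 1.53% in WT proximal libraries, and in cKO mice 8.98 ± 0.348% in distal and 11.6 ± 1.46% in proximal libraries (SD, n = 3 each). Rpl22l1 held 3.16 ± 0.708% of its pair with Rpl22 in WT distal and 4.87 ± 1.91% in WT proximal libraries. That difference of -1.71 percentage points lay between -2.45 and -0.632 with 1 library left out, and was smallest without library 1 of WT proximal, where the share was 7.03%. The smallest exact permutation p among the 12 comparisons of pairs was 0.1, the smallest possible, and 0.24 after adjustment.

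Other genes of the translation machinery were read beside the family from lists written with earlier results of these data known. In this WT segment comparison 24.1% of all genes were called and 11.9% were called higher, which is the background of the counts that follow. Of 26 genes with TOP mRNAs or roles in translation, 12 rose in WT distal against WT proximal libraries and 0 fell (median log2 fold change 0.51). Among them were Nap1l1, a histone chaperone gene (1.89), Npm1, of nucleolar nucleophosmin (1.21), Pabpc4, of a poly(A) binding protein (0.98), and Rack1, of a scaffold protein on the small subunit (1.06). Eef1a1 and Eef2, of the elongation factors, did not pass (0.54 and 0.42, adjusted p = 0.366 and 0.368). Of 42 ribosome biogenesis genes, 30 rose and 2 fell (median 0.97). Mybbp1a, Utp20 and Nop56, of proteins in ribosomal RNA production and processing, rose by 1.5, 1.83 and 1.35, and the 2 that fell were Sbds (-1.32) and Eif6 (-0.62), which act together at the release of Eif6 from the large subunit. Of 78 mitochondrial ribosomal protein genes, which encode the separate ribosome of mitochondria, 2 rose and 8 fell (median -0.08). Of 17 genes of growth signalling to ribosomes, 3 rose and 3 fell. Myc rose by 1.03 and Eif4ebp1, of an inhibitor of cap-dependent translation, by 0.93, while Rptor, of the mTORC1 complex, fell by 0.60.

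Between cKO and WT distal libraries, where 25% of all genes were called, the translation list had 0 genes higher and 2 lower (Nap1l1, -2.51, and Pabpc4, -0.57), the biogenesis list 1 higher (Ltv1, 0.57) and 0 lower, and the mitochondrial ribosomal proteins 8 higher and 0 lower, with Mrps17 at 0.64. These shares all lay below that background. In the proximal segment, where 8.26% of all genes were called, the translation list had Eef1g higher in cKO (0.68) and Nap1l1 lower (-1.12). The biogenesis list had 3 higher and 0 lower, Ltv1 (0.85), Nhp2 (0.72) and Rrn3 (0.70). Of ribosomal protein genes or close relatives that the symbol rule did not take in, Rps3a1 and Rack1 rose in WT distal against WT proximal libraries (0.93 and 1.06), and Fau, Rpl36al and Rps27rt did not pass.

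**Figure D5:**
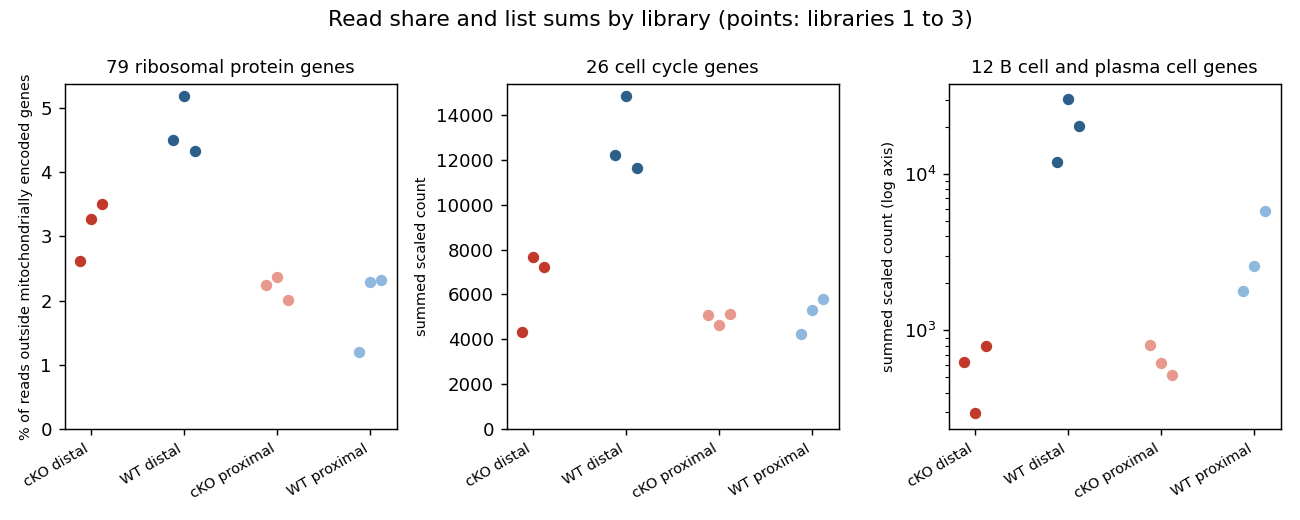
By library (points, libraries 1 to 3): the percent of reads outside mitochondrially encoded genes taken by the 79 ribosomal protein genes, and the summed scaled counts of 26 cell cycle genes and, on a log axis, of 12 B cell and plasma cell genes. The WT distal libraries are the highest in all 3 panels.

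Markers of proliferation and of other cell types differed between the same groups. The background of called genes was 24.1% between WT segments, 25% between genotypes in the distal segment and 8.26% in the proximal segment. Summed over 26 cell cycle genes, scaled counts were 4340 to 7658 in cKO distal, 11637 to 14869 in WT distal, 4636 to 5124 in cKO proximal and 4234 to 5801 in WT proximal libraries. Of these genes 22 rose in WT distal against WT proximal libraries, with Uhrf1 at 2.33, and 15 fell in cKO distal against WT distal libraries. The 12 B cell and plasma cell genes summed to 295 to 789 in cKO distal, 11969 to 30074 in WT distal, 522 to 811 in cKO proximal and 1800 to 5806 in WT proximal libraries, and all 12 rose in WT distal against WT proximal and fell in cKO distal against WT distal libraries. Enterocyte markers summed to 552558 to 981301 in cKO distal, 215090 to 549335 in WT distal, 739195 to 860880 in cKO proximal and 483193 to 731589 in WT proximal libraries. Of 12 enterocyte genes, 6 fell in WT distal against WT proximal libraries, and 4 rose in cKO distal against WT distal libraries. Of 10 T cell genes, 5 fell in cKO distal and 1 in cKO proximal against WT libraries, and between WT segments 1 rose and 4 fell. They summed to 872 to 1347 in cKO distal, 1487 to 3348 in WT distal, 2295 to 4835 in cKO proximal and 3581 to 8498 in WT proximal libraries. Of 9 myeloid genes, 4 fell in cKO distal and 5 in cKO proximal against WT libraries, and 0 passed between WT segments. Their sums were 4439 to 7278 in cKO distal, 6693 to 26560 in WT distal, 3677 to 5065 in cKO proximal and 12195 to 19509 in WT proximal libraries. Of 8 fibroblast genes, 0 passed in cKO distal and 1 fell in cKO proximal against WT libraries, with sums of 5471 to 6559 in cKO distal, 2664 to 26184 in WT distal, 2311 to 4238 in cKO proximal and 3562 to 21004 in WT proximal libraries. Of 11 stem and crypt base genes, 1 rose and 2 fell between WT segments, 2 rose and 3 fell in cKO distal and 1 rose and 3 fell in cKO proximal against WT libraries. These summed to 2144 to 3383 in cKO distal, 1814 to 2634 in WT distal, 1730 to 2274 in cKO proximal and 2148 to 3781 in WT proximal libraries. Library 1 of WT proximal had the lowest cell cycle sum of its group, 4234, and the highest fibroblast sum, 21004 against 3562 to 10458 in the other two. Ascl2 and Tnfrsf19 of the stem and crypt base list were at 0 reads in some libraries, and no other marker of these lists was at 0 in any library. The part of these differences in the ribosomal protein values was not tested.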

How the data were processed

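Total RNA of 12 small intestine samples was extracted with Trizol, per the labels' protocols, and the Ovation V2 system made the cDNA libraries. The submitters' processing notes name STAR, DESeq2 1.28.1 and the build mm10; the STAR version is not given. The deposited values are a signal: all 206100 were whole multiples of a step of their column (within 0.001 steps), read as (count + 1) divided by a size factor, which gave back whole reads. All 12 sample columns were matched by name, with 0 left over.

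The main test was limma 3.58.1 (R 4.3.3, empirical Bayes with trend) on log2(value + 1), with 4 group means over 12 libraries, adjusted by Benjamini-Hochberg over 17175 genes and called at adjusted p under 0.05. edgeR 4.0.16 quasi-likelihood on the recovered reads was an alternative. Scripts were tested on simulated data. Shares of reads were compared by exact two-sided permutation. Counting of reads shared between copies, and any filter before deposit, are not given in the sources used here. Transcript lengths and shared 50-base windows came from GENCODE M21 (shortest principal transcript).

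Libraries of 1 genotype with the same number correlated between segments in their deviations from group means (0.31, 0.17 and 0.31 in WT; 0.16, 0.22 and 0.32 in cKO), and the labels' sample names share the number, so numbers were taken to pair segments within a genotype. Between genotypes they did not pair.

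The members and lists were chosen with earlier results of these data known. Named were Rpsa, the stalk genes, paralogs and their parents, per comparison the 6 called members with the largest change in each direction (or the 3 with the smallest p where fewer than 3 passed), the 5 highest and 5 lowest per length, and up to 4 genes per list. Rpl10, Rpl38, Rpl7a, Rps29, Rpl15, Rpl35a, Rps15a, Rps23, Mrps17, Rpl36al, Fau and other list genes outside this rule were named after their values were seen, and a few genes are not reported here. Alternatives were other scalings (TMM and total reads outside mitochondrially encoded genes), a pseudocount of 8, a mean value of at least 10, the mitochondrial share as covariate, leaving out libraries, and blocks.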

Additional observations from a re-analysis of the deposited data

How the results depend on the processing

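The WT segment comparison called 69 to 77 members under the other scalings, pseudocount, filter, covariate, edgeR and blocks. Over all genes these runs called 19.47% to 33.52%. When 1 library was left out, 48 to 74 members were called, where 15.96% to 25.86% of all genes were. With total reads outside mitochondrially encoded genes, the median of the WT segment comparison was 1.315. That of the cKO segment comparison was 0.476, with 2 members and 10.99% of all genes called. The median of the distal genotype comparison was -0.599, with 31 members and 27.77% of all genes called. That of the difference of genotype effects was -0.849. The distal genotype comparison called 1 member with the mitochondrial share as covariate (8.1% of all genes) and 1 without both cKO libraries numbered 1 (12.6% of all genes). Leaving out single libraries gave 1 to 3 members there, 1 to 2 in the proximal genotype comparison, 0 to 2 in the cKO segment comparison, and a median difference of genotype effects of -0.745 to -0.338. Over all genes the runs of these comparisons called 14.4% to 28.8%, 3.38% to 9.9% and 6.0% to 11.3%, in that order. The replicate block by number changed no count of calls. The block by animal gave 75 members in WT segments and 3 in cKO segments, and 0 for the difference of genotype effects. Its backgrounds were 28.7%, 15.1% and 2.68% of all genes.

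Rpl29 in the distal segment did not pass with total reads outside mitochondrially encoded genes (log2 fold change 0.37, adjusted p = 0.241), with the mitochondrial covariate (0.105), without both cKO libraries numbered 1 (0.0651), without library 2 of cKO distal (0.0591) and without library 1 of WT distal (0.0589). Rpl3 did not pass with the covariate (0.170), without both cKO libraries numbered 1 (0.0873), and without library 1 (0.0652) or 2 (0.0525) of cKO distal or library 2 of WT distal (0.0909). Rps27l in the distal segment passed under each alternative run. The cause of these changes was not tested.

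Scaled to the family median, the WT segment values of Rpl7, Rpl7l1, Rplp1, Rplp2 and Rps27 turned to -0.23, -0.88, -0.16, -0.088 and -0.072, since that scaling sets the family's own change to 0. With 1 library left out, the proximal genotype difference of the family's read share lay between -0.0942 and 0.460 percentage points, that of the Rpl22l1 share between -1.49 and 0.328 and that of the Rpl7l1 share between -1.11 and 0.595 (0.0348 without both cKO libraries numbered 1). The distal difference of the Rpl22l1 share lay between -0.022 and 0.671. With 3 libraries a group, exact tests of single shares cannot go below 0.1.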

Other observations

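Around Rpl29, 31 measured genes lay within 1 Mb on either side. Between cKO and WT proximal libraries 0 of them were higher and 4 lower, and between cKO and WT distal libraries 5 were higher and 7 lower, with median log2 fold changes of 0.20 and -0.06. Over all genes 8.26% were called in the proximal and 25% in the distal comparison.

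Members that shared 50% or more of their windows with other genes (51) and those that shared less (28) had near equal medians in the WT segment and genotype comparisons. In WT distal against WT proximal libraries these were 0.93 with 47 called and 0.94 with 24 called. In cKO against WT libraries they were -0.18 and -0.16 in the distal segment and 0.41 and 0.45 in the proximal segment. Between cKO segments the medians lay further apart, at 0.32 and 0.42, with 0 called in each set.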
